A study of Homo sapiens with 18 samples.

Results

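The cysteine tRNA genes of HEK293T cells, a human embryonic kidney line, were followed through a small RNA-seq experiment on the knockdown of SSB, the gene of the La protein. The count table held 175935 rows of noncoding RNA features, and the cysteine tRNA genes were the 30 rows named as tRNA-Cys and no longer than 500 nt. Of these, 18 lay in a cluster on chromosome 7 and 12 lay elsewhere in the genome, and the comparison of these locus groups is the thread of what follows. Cells had been transfected for 48 h with si-SSB (siSSB) or si-scramble (control) using RNAimax, and RNA was taken as total, nuclear (nuc) or cytoplasmic (cyto) RNA. Each of the 6 groups had 3 replicates, 18 libraries in all, and each library was labelled as prepared with PNK. The study's methods call the replicates of its genomic experiments biological and say that they were processed on the same day.

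Transfer RNAs carry amino acids to the ribosome, and cysteine tRNA reads the cysteine codons with the anticodon GCA. Their genes are transcribed by RNA polymerase III (Pol III) from internal promoter elements, the A box and the B box, and transcription ends in a run of T downstream of the gene. The U-rich tail this leaves on the precursor is the binding site of La, a chaperone that shields the 3′ end during processing, after which the tail is removed and CCA is added.

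The chromosome 7 cluster spanned chr7:149310190-149707740 (hg38), a stretch of 397551 bp, with 9 of its 18 genes on the minus strand. Of the 12 others, 6 lay on chromosome 17. By position, 29 of the 30 rows matched a RefSeq gene (GRCh38.p14), whose symbols, from TRC-GCA1-1 to TRC-GCA23-1, are used here. The remaining row, tRNA-Cys-GCA-24-1 at chr17:38833722-38833793, is named as in the table. All 30 genes had the anticodon GCA. The gene was 72 nt long in 27 of them, 73 nt in 2 and 70 nt in 1, and each row of the table added 25 nt of flank on both sides. In the GENCODE annotation 11 of the 30 lay inside a gene and 0 overlapped an exon.

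The 30 genes had 24 distinct sequences. TRC-GCA2-1, TRC-GCA2-2, TRC-GCA2-3 and TRC-GCA2-4, on chromosomes 4 and 17, were identical from end to end. TRC-GCA9-1 on chromosome 3 was identical to TRC-GCA9-2, TRC-GCA9-3 and TRC-GCA9-4 in the chromosome 7 cluster. Copies of 1 sequence can be told apart only by reads that reach into their flanks, and how the authors placed reads that match several genes is not given in the sources used here. A value for a single copy is therefore uncertain. Since TRC-GCA9-1 lies outside the cluster and its identical copies inside it, the sums and shares of the locus groups are in part uncertain too. The genes of the results below are shown to make plain what these copies share and where they part, with the gene followed by its 25 nt of downstream flank. Capitals mark the anticodon and the first run of at least 4 T that lies whole within the flank.
TRC-GCA2-4: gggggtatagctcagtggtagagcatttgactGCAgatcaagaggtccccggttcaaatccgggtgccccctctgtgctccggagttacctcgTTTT
TRC-GCA2-3: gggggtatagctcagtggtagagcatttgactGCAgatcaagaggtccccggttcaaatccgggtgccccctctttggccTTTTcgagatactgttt
TRC-GCA2-1: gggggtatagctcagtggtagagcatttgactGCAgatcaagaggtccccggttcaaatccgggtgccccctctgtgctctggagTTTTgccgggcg
TRC-GCA9-1: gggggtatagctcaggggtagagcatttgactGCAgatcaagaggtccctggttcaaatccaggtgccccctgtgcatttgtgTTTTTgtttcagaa
TRC-GCA9-3: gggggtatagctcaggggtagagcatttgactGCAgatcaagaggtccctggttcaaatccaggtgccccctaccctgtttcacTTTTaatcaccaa
TRC-GCA9-4: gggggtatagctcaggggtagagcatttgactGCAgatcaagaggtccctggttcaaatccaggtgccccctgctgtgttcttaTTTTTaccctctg
TRC-GCA17-1: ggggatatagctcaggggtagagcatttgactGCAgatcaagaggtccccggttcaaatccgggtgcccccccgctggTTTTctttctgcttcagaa
TRC-GCA21-1: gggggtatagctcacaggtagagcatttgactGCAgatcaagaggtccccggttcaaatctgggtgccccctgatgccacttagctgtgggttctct
TRC-GCA23-1: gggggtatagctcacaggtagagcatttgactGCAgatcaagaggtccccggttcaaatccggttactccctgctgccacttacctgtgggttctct

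These genes lie on hg38 at chr17:39154491-39154562 (TRC-GCA2-4, minus strand), chr17:39153734-39153805 (TRC-GCA2-3, minus strand, in an intron of PLXDC1), chr4:123508850-123508921 (TRC-GCA2-1, minus strand) and chr3:132231798-132231869 (TRC-GCA9-1, minus strand, in an intron of CPNE4). On chromosome 7 they lie at chr7:149635687-149635758 (TRC-GCA9-3, plus strand), chr7:149707669-149707740 (TRC-GCA9-4, plus strand), chr7:149691181-149691252 (TRC-GCA17-1, minus strand), chr7:149664824-149664895 (TRC-GCA21-1, plus strand) and chr7:149595214-149595285 (TRC-GCA23-1, minus strand, in an intron of ZNF767P).

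Measured in edits from TRC-GCA2-4, the gene with the most counts, the chromosome 7 genes stood 2 to 7 away with a median of 4. The genes elsewhere stood 0 to 7 away with a median of 1. A match to the consensus of the B box, searched on the gene's own strand, was found in 24 of the 30 genes, 13 of 18 on chromosome 7 and 11 of 12 elsewhere, against 68.7% of the 469 other tRNA rows. TRC-GCA21-1 was among the genes without it. A run of at least 4 T lay whole within the downstream flank in 28 of the 30 genes. In the other two, TRC-GCA21-1 and TRC-GCA23-1, the first such run began at base 25, at the outer edge of the counted row. These matches describe letters only and do not show which ends were used.

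Cysteine tRNA rows made up 0.413% to 1.18% of all tRNA counts in a library, and a single gene supplied much of that. TRC-GCA2-4 held 31.2% to 58.1% of the cysteine tRNA counts. On chromosome 7 the leading gene was TRC-GCA17-1, with 5387 counts over all libraries, followed by TRC-GCA9-4 with 1411. The levels of the cluster were uneven. TRC-GCA11-1 had at most 5 counts in any library and TRC-GCA16-1 at most 5, and in nuclear RNA of control cells TRC-GCA20-1 had counts of 0, 1 and 0 in replicates 1, 2 and 3. Identical genes also differed: TRC-GCA2-4 had 20572 counts in all, TRC-GCA2-1 4009, TRC-GCA2-3 2296 and TRC-GCA2-2 1330. Among the copies of the other sequence TRC-GCA9-1 had 798, TRC-GCA9-2 451, TRC-GCA9-3 604 and TRC-GCA9-4 1411. All these rows are of like length, so length does not bar setting their counts within a library side by side. How the counts split between identical copies stays uncertain, since the placement of their reads is not known.

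**Figure D1:**
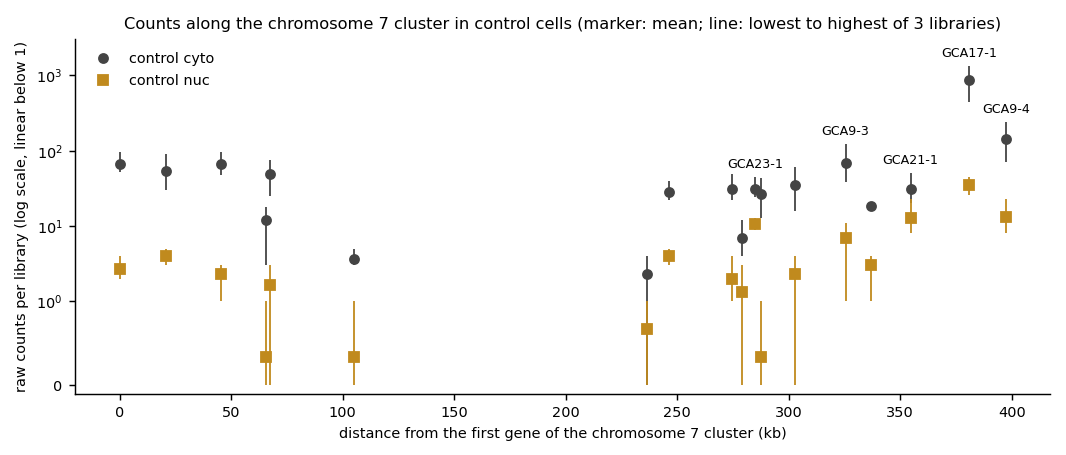
Raw counts per library of the 18 chromosome 7 genes in control cyto (circles) and control nuc (squares) RNA, against the distance in kb from the first gene of the cluster. Markers are means and lines run from the lowest to the highest of 3 libraries. TRC-GCA17-1 stands above all others in cyto with 441 to 1314 counts, and several genes have 0 or 1 count in nuc.

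Libraries differed in depth, and the column sums ran from 21565995 to 158244813 counts. Values were compared after TMM scaling. The TMM factors of siSSB total replicate 2 (1.75), control total replicate 1 (0.642) and siSSB nuc replicate 2 (1.40) stood apart from those of their groups. The counting of overlapping rows and the scaling decide what such a value means in bulk RNA, and less cysteine tRNA cannot be told apart from more of the other RNA. No row named SSB was in the table (0 rows), so the knockdown itself was not measured here. The fractions were checked with RNY1, a cytoplasmic Pol III RNA, which stood at 2392 to 2614 CPM (the count relative to the column sum, scaled to a common total) in control cyto and 6.25 to 12.6 in control nuc. The summed mitochondrial tRNA rows, the other cytoplasmic marker, stood at 2484 to 4171 CPM in control cyto and 105.5 to 142 in control nuc. On the same scale, on which all features together had a median log2 fold change (nuc over cyto) of -4.33, the nuclear RNA MALAT1 was at 0.900 to 1.35 CPM in control nuc and 15.6 to 19.4 in control cyto. NEAT1 was at 1.62 to 1.86 and 17.2 to 18.04. The nuclear RNAs RNU6-1, at 2.19 to 4.37 and 4.22 to 4.49, and SNORD3A, at 15.6 to 27.6 and 21.1 to 34.6, overlapped between the fractions. By CPM these nuclear RNAs were thus not higher in nuc than in cyto. On this scale the cytoplasmic markers alone bore out the fraction labels.

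The first question was how cysteine tRNA counts differed between siSSB and control cells in total RNA. In total RNA all 25 genes with enough counts to be tested had lower values in siSSB than in control, with a median log2 fold change of -1.06. The 14 tested on chromosome 7 had a median of -1.27 and the 11 elsewhere a median of -0.81. The median of all features tested was -0.01 and that of the 411 other tRNA rows -0.83. Only 1 of the 25, TRC-GCA21-1, passed the test, edgeR's quasi-likelihood test with Benjamini-Hochberg adjustment over all features, while 1.34% of all features passed it and 0.972% were called lower. At an unadjusted p under 0.05 there were 18 of 25, and 16.6% of all features. Among the other tRNA rows 42 were called lower and 0 higher. The direction did not hang on the scaling, since the median of the 25 ran from -1.57 to -0.32 over all scalings tried, with 20 to 25 genes negative, but the call count ran from 0 to 20 between them. With 1 library left out at a time, the median ran from -1.52 without siSSB replicate 3 to -0.72 without control replicate 1. The call count then ran from 0 to 6.

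TRC-GCA21-1 had 62, 33 and 33 counts in replicates 1, 2 and 3 of control total RNA and 10, 11 and 18 in siSSB. Every siSSB library lay below every control library, also after scaling. TRC-GCA21-1 fell by 1.86 ± 0.39 (SE) on the log2 scale, with an edgeR adjusted p of 0.0381, from 0.694 ± 0.334 to 0.192 ± 0.0782 TMM-scaled CPM (mean ± SD, n = 3). It did not keep this call without control replicate 1 (adjusted p 0.0612), control replicate 2 (0.0674), siSSB replicate 1 (0.0968) or siSSB replicate 2 (0.15), by the same edgeR test. Over all fits its adjusted p ran from 1.52e-05 to 0.276, and it was called in 8 of 15.

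TRC-GCA23-1, the other gene with no T run inside the counted flank, is close to TRC-GCA21-1 in the sequence of both gene and flank. The counts of these 2 genes may therefore not be independent. TRC-GCA23-1 had 52, 24 and 17 counts in control and 5, 10 and 10 in siSSB. Its ranges were apart too, and its log2 fold change of -2.06 ± 0.49 was the most negative of the 25, with an edgeR adjusted p of 0.0703. Across the 25 genes the distance of the T run and the fold change in total RNA were not related in rank (Spearman's rho -0.05, n = 25 genes that share libraries and in part sequence). Mean count and fold change had a rho of 0.44, so the genes of low count tended to have the more negative values, and the 2 genes above were among those of low count.

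The leading gene TRC-GCA2-4 had 1432, 1045 and 1214 counts in control total RNA and 694, 664 and 939 in siSSB. Its groups did not overlap after scaling, at 19.7 ± 4.53 and 11.3 ± 3.32 CPM, and its log2 fold change was -0.80 ± 0.29 with an edgeR adjusted p of 0.185. TRC-GCA2-3, its identical neighbour on chromosome 17, had 145, 122 and 130 counts against 61, 70 and 78, with a log2 fold change of -1.06 ± 0.25 and an edgeR adjusted p of 0.0645.

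On chromosome 7, TRC-GCA17-1 had 476, 257 and 179 counts in control total RNA and 108, 78 and 233 in siSSB. Its groups overlapped, and its log2 fold change was -1.25 ± 0.47 (edgeR adjusted p 0.207). TRC-GCA9-4 had 112, 88 and 78 counts in control and 83, 70 and 101 in siSSB, again with overlapping groups. Its log2 fold change of -0.25 ± 0.29 was the nearest to 0 of all 25 genes, and it turned positive when libraries were scaled by column sum, snoRNA sum or tRNA sum (0.27, 0.42 and 0.47). The identical TRC-GCA9-3 stood at 64, 48 and 38 counts in control and 21, 13 and 32 in siSSB, with groups apart and a log2 fold change of -1.30 ± 0.38 (edgeR adjusted p 0.116). TRC-GCA9-2 was at -1.74 ± 0.42 and TRC-GCA9-1 at -0.65 ± 0.40.

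Counted by range alone, 13 of the 25 genes had all siSSB total libraries below all control libraries after TMM scaling, 9 of 14 on chromosome 7 and 4 of 11 elsewhere. Of all features tested 9.05% were apart in this direction and 10.6% in the other, in which no cysteine tRNA gene was (0 of 25). Summed over its 18 genes, the chromosome 7 cluster had 12.4 ± 5.72 CPM in control and 5.66 ± 2.49 in siSSB, a log2 ratio of -1.13, with ranges that overlapped. The sum of the 12 genes elsewhere had 34.9 ± 9.88 CPM in control and 18.9 ± 6.74 in siSSB, a log2 ratio of -0.89, with ranges apart.

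**Figure D2:**
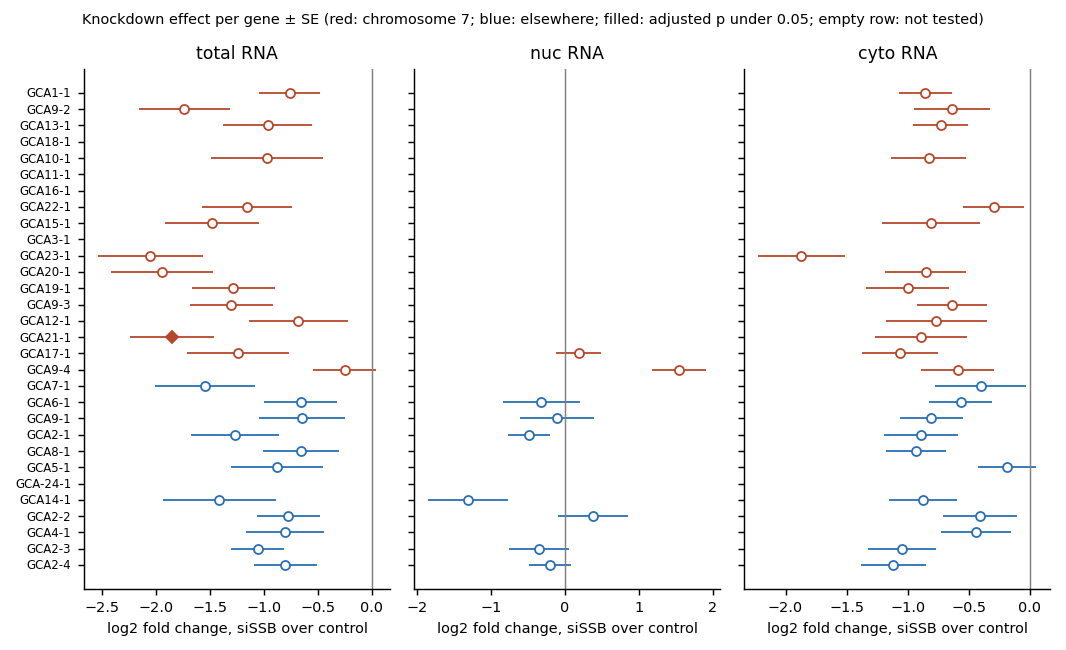
Log2 fold change of each gene, siSSB over control, with its SE (lines) in total, nuc and cyto RNA (3 libraries against 3 each). Red is chromosome 7 and blue elsewhere, filled diamonds have an adjusted p under 0.05 and empty rows were not tested. All 25 tested genes lie left of 0 in total and in cyto, and TRC-GCA9-4 at 1.55 stands to the right in nuc.

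In cytoplasmic RNA the same question gave values of the same direction for all 25 genes tested, with a median log2 fold change of -0.81. The 14 genes tested on chromosome 7 had a median of -0.82 and the 11 elsewhere a median of -0.81. The edgeR test called 0 of the 25, against 0.291% of all features, with 14 at an unadjusted p under 0.05 (6.66% of all features) and 1 called by DESeq2 (0.83% of all features). Among 417 other tRNA rows, which had a median of -0.60, 19 were called lower. The median of the 25 ran from -0.98 to -0.22 over the scalings, with 18 to 25 genes negative, so some genes changed sign between them.

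In cyto the groups of the leading gene were apart in both locus groups. TRC-GCA2-4 had 2861, 2587 and 3519 counts in control cyto and 1634, 1048 and 1709 in siSSB cyto. After scaling this was 109.7 ± 10.9 against 50.6 ± 11.04 CPM with no overlap, a log2 fold change of -1.12 ± 0.26, and its edgeR adjusted p was 0.149. TRC-GCA17-1 had 838, 441 and 1314 counts against 352, 411 and 472, also without overlap after scaling, at a log2 fold change of -1.06 ± 0.31 (edgeR adjusted p 0.296).

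TRC-GCA23-1 had 24, 25 and 45 counts in control cyto and 5, 9 and 12 in siSSB cyto, and the groups were apart. Its log2 fold change of -1.87 ± 0.35 was again the most negative of the 25, with an edgeR adjusted p of 0.0709. TRC-GCA21-1 had 24, 20 and 50 counts against 13, 11 and 27, with overlapping groups, a log2 fold change of -0.89 ± 0.38 and an edgeR adjusted p of 0.675. TRC-GCA9-4 had 124, 70 and 240 counts against 91, 97 and 95, with overlapping groups and a log2 fold change of -0.59 ± 0.30 (edgeR adjusted p 0.813).

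By range, 15 of the 25 genes were apart and lower in siSSB cyto, 8 of 14 on chromosome 7 and 7 of 11 elsewhere, against 7.53% of all features. The chromosome 7 sum was 53.5 ± 14.1 CPM in control cyto and 28.6 ± 4.80 in siSSB cyto (log2 ratio -0.91). The sum elsewhere was 163.6 ± 3.40 and 82.9 ± 12.7 CPM (log2 ratio -0.98). Both sums were apart between the groups.

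**Figure D3:**
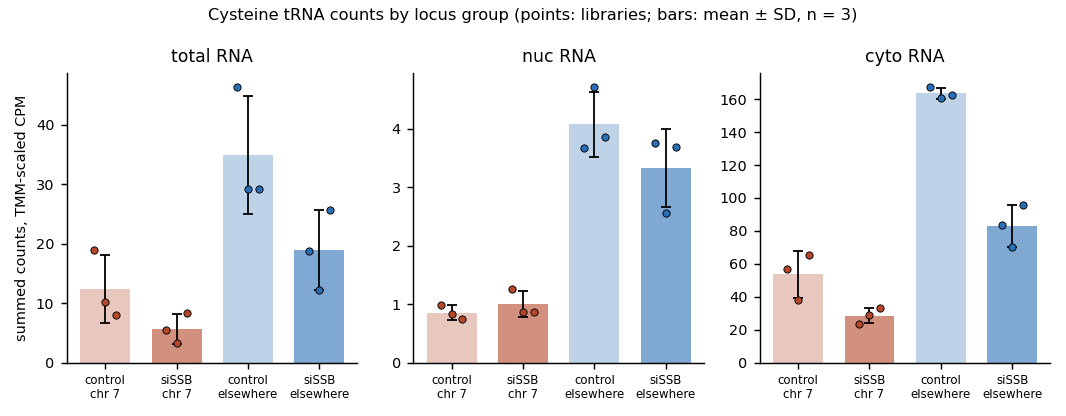
Summed TMM-scaled CPM of the cysteine tRNA genes on chromosome 7 (red) and elsewhere (blue) in control and siSSB cells, by RNA type, with axes that differ between panels. Points are libraries, bars means and lines SD (n = 3). In cyto the siSSB libraries lie below the control libraries in both locus groups, and in nuc the groups overlap in both.

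In nuclear RNA cysteine tRNA counts were few, with 474 to 654 per library in all, and 9 genes could be tested, 2 on chromosome 7 and 7 elsewhere. Their median log2 fold change was -0.20, with 6 of 9 negative, and it ran from -0.30 to 0.13 over the scalings, so no direction held. The edgeR test called 0 of 9, against 0.378% of all features, with 2 at an unadjusted p under 0.05 (14.0% of all features), 0 called by DESeq2, and a median of -0.36 for 307 other tRNA rows. TRC-GCA2-4 had 253, 206 and 189 counts in control nuc and 216, 148 and 214 in siSSB nuc. Its log2 fold change of -0.20 ± 0.28 turned to between 0.01 and 0.13 under scaling by column, miRNA, snoRNA or tRNA sums. TRC-GCA17-1 had 45, 26 and 34 counts against 48, 34 and 41, at a log2 fold change of 0.19 ± 0.30. For both genes the groups overlapped.

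TRC-GCA9-4 stood apart from these in nuclear RNA. It had 23, 8 and 9 counts in control nuc and 47, 52 and 23 in siSSB nuc, and the scaled groups, 0.107 ± 0.0503 and 0.319 ± 0.0946 CPM, did not overlap. Its log2 fold change was 1.55 ± 0.37, with an unadjusted p of 0.00065 and an edgeR adjusted p of 0.106. A fit with the replicate number as a block called it (log2 fold change 1.58, edgeR adjusted p 0.0275), but same-numbered libraries did not deviate together. Of all features tested 13.2% were apart in this direction, and 1 of the 9 cysteine tRNA genes was. Among its identical copies TRC-GCA9-1 had 8, 12 and 8 counts against 12, 5 and 10, with overlapping groups, and a log2 fold change of -0.11 ± 0.50. TRC-GCA9-3 had 9, 11 and 1 against 15, 6 and 4, and TRC-GCA9-2 4, 3 and 5 against 12, 6 and 2, too few to be tested.

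The test of whether the knockdown effect differed between nuc and cyto called 0 of 27 cysteine tRNA genes by edgeR, against 0.0133% of all features, with 4 at an unadjusted p under 0.05 (4.9% of all features) and 0 called by DESeq2. For TRC-GCA9-4 the nuc effect exceeded the cyto effect by 1.99 ± 0.54 on the log2 scale, with an unadjusted p of 0.000609 and an edgeR adjusted p of 0.958. This estimate stayed between 1.75 and 2.49 over all alternatives tried. Of the 21 genes left out of the nuc test by their low counts, 2 had scaled groups apart and lower in siSSB and 1 apart and higher. The lower ones were TRC-GCA23-1 (9, 13 and 10 counts in control nuc, 1, 4 and 2 in siSSB nuc) and TRC-GCA21-1 (23, 8 and 8 against 7, 6 and 7). The higher one was TRC-GCA20-1 (0, 1 and 0 against 3, 2 and 2). No share over all features was taken at such low counts, so these genes are described only and no result is drawn from them. Among the features tested in nuc, 13.2% were apart and higher in siSSB.

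A share within the cysteine tRNA counts does not depend on the scaling. TRC-GCA9-4 held 2.99% to 3.55% of these counts in control total RNA and 4.64% to 5.59% in siSSB total RNA, with no overlap. In nuc its share was 1.25% to 3.52% in control and 4.61% to 10.97% in siSSB, with no overlap, and in cyto 1.57% to 2.91% and 2.62% to 3.64%, which overlapped. In total RNA its TMM-scaled value had a log2 fold change of -0.25 with overlapping groups, so the higher share there does not by itself mean a higher level of the gene. The gene was picked for its shares after its values were seen, and they were not tested. How many other genes had shares apart was not counted.

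The share of the whole chromosome 7 cluster addressed whether the cluster answered the knockdown differently from the genes elsewhere. Reads of the TRC-GCA9 sequence may have been counted in either locus group, since its copies lie in both. In total RNA it was 25.5 ± 3.66% in control and 22.7 ± 1.53% in siSSB (mean ± SD, n = 3; exact two-sided permutation test, p = 0.3). In nuc it was 17.5 ± 3.35% in control and 23.2 ± 3.58% in siSSB, a difference of 5.69 percentage points (exact permutation p = 0.2). In cyto it was 24.4 ± 4.90% in control and 25.7 ± 3.49% in siSSB (exact permutation p = 0.6). The groups overlapped in all 3 RNA types, and with 3 libraries against 3 such a test cannot go below 0.1. Over all RNA types together, with labels exchanged within each type, the share differed by 1.40 percentage points (exact permutation p = 0.444, 8000 arrangements). Without TRC-GCA2-4 and TRC-GCA17-1 the difference in total RNA turned to 0.318 percentage points (exact permutation p = 0.8), while that in nuc was 7.03 (exact permutation p = 0.2) and that over all types 2.47 (exact permutation p = 0.159). With so few libraries, the tests within each RNA type could not decide whether the locus groups differed. The test over all types took the mean of the signed differences. In it the -2.75 percentage points of total RNA and the 5.69 of nuc partly cancelled. It thus detected no shift shared by the 3 RNA types, and it cannot decide on shifts that differ in direction between them.

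**Figure D4:**
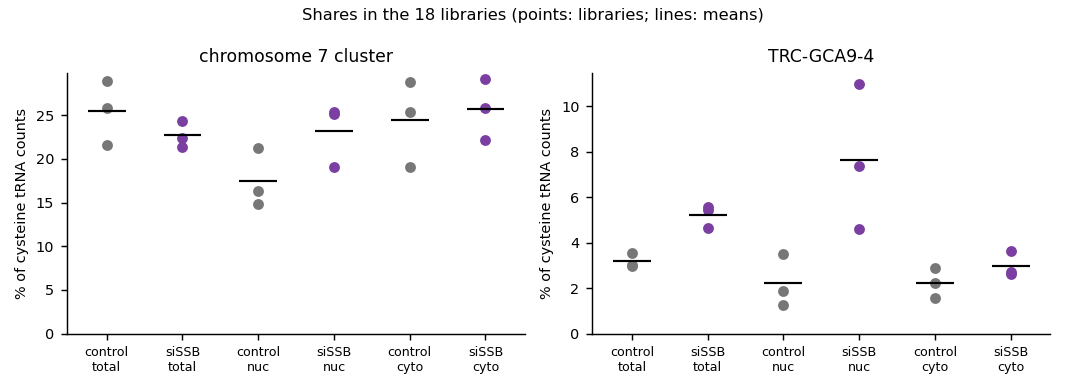
Share of the cysteine tRNA counts of a library, in percent, held by the chromosome 7 cluster (left) and by TRC-GCA9-4 (right) in control and siSSB cells by RNA type. Points are libraries and lines means of 3. The cluster's groups overlap in each RNA type, while TRC-GCA9-4 lies above control in all siSSB total and siSSB nuc libraries.

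Between the fractions, most cysteine tRNA genes had lower TMM-scaled values in nuc than in cyto. Of 27 tested in control cells 19 were called by edgeR, 1 higher in nuc and 18 lower, against 23.3% of all features called (9.21% higher and 14.1% lower). Their median log2 fold change, nuc over cyto, was -1.70, against -2.32 for 430 other tRNA rows, of which 10 were called higher and 335 lower. This direction depended on the scaling: with the column sum or the snoRNA sum all 27 genes were lower in nuc, while with the tRNA sum the median was 0.32, and 5 genes were called higher and 0 lower. The TMM factors themselves ran from 0.229 to 0.248 in control nuc and from 3.63 to 4.81 in control cyto. In siSSB cells 11 of 26 were called, 1 higher and 10 lower, against 25.3% of all features (10.8% higher and 14.5% lower), and the median was -1.0, against -1.95 for the other tRNA rows. With the tRNA sum this too turned, to a median of 0.91 with 8 genes called higher and 0 lower.

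The gene called higher in nuc was TRC-GCA2-1, the chromosome 4 copy, in both control and siSSB cells. It had 156, 224 and 158 counts in control nuc and 231, 199 and 584 in control cyto, where the cyto libraries held far fewer counts in all. Scaled values were 5.71 ± 1.44 CPM in nuc and 2.54 ± 0.921 in cyto, with no overlap, and its log2 fold change was 1.17 ± 0.32 (edgeR adjusted p 0.00706). In siSSB cells it was 1.42 ± 0.32 (edgeR adjusted p 0.00134). The call in control cells was lost without control cyto replicate 1 (edgeR adjusted p 0.0726), control cyto replicate 2 (0.113) or control nuc replicate 2 (0.0588), with scaling by the miRNA sum (0.204) and without the filter on low counts (0.377). The direction depended on the scaling: in control cells the log2 fold change was 1.18 with DESeq2 size factors, 0.77 with the miRNA sum and 3.22 with the tRNA sum, but -2.96 with the column sum and -4.72 with the snoRNA sum.

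What did not turn with the scaling was its place among its identical copies. TRC-GCA2-1 held 23.9% to 35.1% of the cysteine tRNA counts in control nuc and 4.19% to 7.08% in control cyto. In siSSB cells it held 23.5% to 28.9% in nuc and 4.17% to 6.53% in cyto. TRC-GCA2-4 went the other way, with 32.3% to 39.5% in control nuc and 42.6% to 58.1% in control cyto. The log2 fold changes, nuc over cyto in control cells, were -1.84 ± 0.29 for TRC-GCA2-4, -2.47 ± 0.36 for TRC-GCA2-3 and -2.04 ± 0.42 for TRC-GCA2-2, each called lower by edgeR (adjusted p 6.97e-06, 1.91e-06 and 0.00028).

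TRC-GCA2-1 lies within the longer noncoding RNA LINC02435, which is on the opposite strand. The LINC02435 row, 22297 nt long, had the same count as TRC-GCA2-1 in 11 of 18 libraries and at most 5 counts more in the others. The count of the tRNA's 122 nt row was thus 97.8% to 100% of that of the longer row on the opposite strand. Rows on opposite strands held nearly the same counts here, so the count of TRC-GCA2-1 cannot be assigned to 1 strand. The positions and strands of the reads were not examined. In knockdown TRC-GCA2-1 had 496, 280 and 268 counts in control total RNA and 152, 87 and 228 in siSSB, with scaled groups apart. Its log2 fold change was -1.27 ± 0.41 in total (edgeR adjusted p 0.129), -0.89 ± 0.30 in cyto (0.479) and -0.48 ± 0.28 in nuc (0.424).

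**Figure D5:**
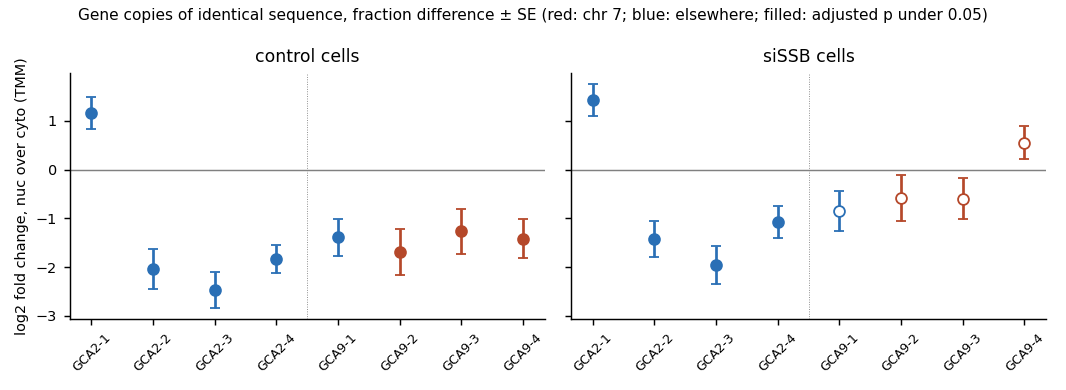
Log2 fold change, nuc over cyto with TMM scaling, and its SE for the 4 copies of the TRC-GCA2 sequence and the 4 copies of the TRC-GCA9 sequence, in control (left) and siSSB cells (right). Filled points have an adjusted p under 0.05. TRC-GCA2-1 lies above 0 and its identical copies below it in both; with column-sum or snoRNA-sum scaling all tested genes lie below 0.

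The copies of the other shared sequence lay closer together in control cells. TRC-GCA9-1 was at -1.39 ± 0.38, TRC-GCA9-2 at -1.70 ± 0.47, TRC-GCA9-3 at -1.27 ± 0.46 and TRC-GCA9-4 at -1.41 ± 0.40, all called lower in nuc by edgeR (adjusted p 0.00629, 0.00688, 0.0442 and 0.00779). In siSSB cells TRC-GCA9-1, TRC-GCA9-2 and TRC-GCA9-3 were at -0.86 ± 0.41, -0.58 ± 0.47 and -0.60 ± 0.42. TRC-GCA9-4 was at 0.55 ± 0.34. None of the 4 was called in siSSB cells (edgeR adjusted p 0.136, 0.408, 0.331 and 0.266).

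TRC-GCA21-1 and TRC-GCA23-1 were, after TRC-GCA2-1, the genes with the most positive values in control cells. TRC-GCA21-1 had 23, 8 and 8 counts in control nuc and 24, 20 and 50 in control cyto, with overlapping groups and a log2 fold change of 0.72 ± 0.40 (edgeR adjusted p 0.22). TRC-GCA23-1 was at 0.45 ± 0.39 (edgeR adjusted p 0.458). TRC-GCA17-1, the leading gene of the cluster, was at -2.60 ± 0.35 in control and -1.52 ± 0.35 in siSSB cells, called lower in both (edgeR adjusted p 3.01e-07 and 0.00164). Its share of cysteine tRNA counts was 4.08% to 7.10% in control nuc and 9.90% to 15.9% in control cyto, without overlap.

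Summed over the cluster, nuc and cyto stood at 3.22 ± 0.549 and 11.9 ± 3.30 CPM in control cells (log2 ratio -1.88), and over the genes elsewhere at 15.3 ± 1.84 and 36.1 ± 1.35 CPM (log2 ratio -1.24). In siSSB cells the log2 ratios were -0.92 and -0.71. Under scaling by the tRNA sum all 4 ratios were positive.

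A further row lies inside the cluster but is not a cysteine tRNA by name, tRX-Cys-NNN-4-1 (table row chr7:149628128-149628260), a tRNA-like gene annotated with an undetermined anticodon. It had 3228, 2118 and 2809 counts in control total RNA and 1055, 572 and 899 in siSSB, more than any cysteine tRNA gene of the cluster. All siSSB libraries lay below all control libraries. It fell by 1.78 ± 0.36 on the log2 scale in total RNA, by 2.18 ± 0.39 in nuc and by 2.07 ± 0.29 in cyto (edgeR adjusted p 0.0333, 0.0131 and 0.033). Other Pol III RNAs with a fixed place in the comparison were the vault RNAs, Y RNAs, RN7SK, RMRP and RPPH1, 10 in all. Of these the vault RNAs VTRNA1-1, VTRNA1-2 and VTRNA1-3 fell in total RNA, with log2 fold changes of -2.25, -2.58 and -1.67 (edgeR adjusted p 0.0128, 0.0123 and 0.0491). VTRNA1-1 and VTRNA1-2 also fell in nuc and in cyto, and no other of the 10 was called in any of the 3 RNA types.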

How the data were processed

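The values deposited by the authors are raw counts, 1 whole number for each noncoding RNA feature (hg38) and library, and were not normalized. Small RNA was extracted with the mirVana PARIS kit and libraries were made with the NEBNext small RNA kit, per the labels. The submitters' processing notes name Bowtie2 and bedtools. Their settings, the use of strand and the treatment of reads that match several genes are not given in the sources used here.

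The sample titles gave each library's group and replicate number. Each pair of groups was fitted with edgeR 4.0.16 (R 4.3.3; glmQLFit and glmQLFTest, TMM factors, filterByExpr, group means) on its own 6 libraries, and the nuc-cyto difference of knockdown effects on 12. P-values were adjusted over all features tested, with a threshold of 0.05. SEs are those implied by the F statistic. Sums and shares of locus groups were formed per library, and shares were compared by exact permutation. The alternatives were DESeq2 1.42.0, other scalings, no filter, a replicate block and leaving out each library. The code was tested on simulated data. Gene sequences were read from hg38 (pysam 0.24.0) and compared with edlib; names came from RefSeq by exact position.

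The 3 genes with the highest mean count in each locus group, and those called in a knockdown comparison, were given with the count in each library. TRC-GCA23-1, TRC-GCA9-1, TRC-GCA9-2, TRC-GCA2-2 and those given only with counts were named after their values were seen. Members, lists and tests were chosen with earlier results of these data known. No column of the table lacked a sample. Without molecular identifiers reads are not independent molecules.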

Additional observations from a re-analysis of the deposited data

How the results depend on the processing

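Counts of called features, over all features and among cysteine tRNA genes, moved with the scaling, and the cause of these moves was not tested. In total RNA, where 186 features were called, 716 were called with scaling by library size (the column sum) alone, 2289 by the miRNA sum, 695 by the snoRNA sum, 2113 by the tRNA sum, 626 without a filter on low counts, 324 by DESeq2 and 4 at an adjusted p under 0.01. Of cysteine tRNA genes, where 1 was called, these gave 0 by library size, 20 by the miRNA sum, 0 by the snoRNA sum, 0 by the tRNA sum, 12 without a filter, 3 by DESeq2 and 0 at 0.01. In nuc, where 26 features were called, 0 were called by library size, 0 by the snoRNA sum, 0 by the tRNA sum, 67 without a filter and 17 at 0.01. In cyto, where 55 were called, 34 were called with DESeq2 size factors, 13 by library size, 118 by the miRNA sum, 3 by the snoRNA sum, 6 by the tRNA sum, 248 without a filter, 157 by DESeq2 and 7 at 0.01, and 1 cysteine tRNA gene was called without a filter and 1 by DESeq2. Between nuc and cyto in control cells, where 6242 were called, 26435 were called by library size, 26314 by the snoRNA sum and 15327 by the tRNA sum, the last with 5 cysteine tRNA genes. In siSSB cells, where 6658 were called, these were 25875, 25837 and 16632, and of the cysteine tRNA genes 26 were called by library size, 26 by the snoRNA sum, 7 by the miRNA sum, 8 by the tRNA sum (all higher in nuc) and 7 at 0.01. The difference of the knockdown effects, with 5 features called, gave 14 by the miRNA sum, 3 by the snoRNA sum, 12 without a filter, 3 by DESeq2 and 3 at 0.01.

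Libraries of 1 replicate number did not deviate together (correlations of -0.42 to 0.12 in the knockdown comparisons), so the numbers were not taken as pairs. Between nuc and cyto the correlations were near 0, at -0.04 to 0.08. There the same number was still the best match for control replicates 1 and 3 and siSSB replicates 2 and 3. A replicate block called 40 features in nuc and 4 in cyto, with 2 cysteine tRNA genes in total RNA and 1 in nuc, TRC-GCA9-4 (log2 fold change 1.58, edgeR adjusted p 0.0275).

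Leaving out 1 library at a time gave 69 to 303 called features in total RNA with 0 to 6 cysteine tRNA genes, 0 to 37 in nuc, 2 to 45 in cyto, 1 to 24 for the difference of the effects, and 13 to 18 cysteine tRNA genes in control and 5 to 13 in siSSB cells between the fractions. The log2 ratio of the chromosome 7 sum then ran from -1.52 to -0.69 in total RNA, -0.01 to 0.33 in nuc and -1.11 to -0.68 in cyto, and that elsewhere from -1.19 to -0.54, -0.43 to -0.12 and -1.11 to -0.88. Between nuc and cyto the chromosome 7 sum ran from -2.19 to -1.76 in control and -1.16 to -0.73 in siSSB cells, and that elsewhere from -1.37 to -1.16 and -0.86 to -0.46. The chromosome 7 share differed by -4.66 to -1.02 percentage points in total RNA, 4.40 to 7.76 in nuc, -1.39 to 3.43 in cyto and 0.518 to 2.13 over all types, and without TRC-GCA2-4 and TRC-GCA17-1 by 0.318 in total RNA, 7.03 in nuc, 0.0626 in cyto and 2.47 over all types. TRC-GCA9-4 ran from -0.47 to 0.08 in total RNA, with the positive value without siSSB total replicate 2, and TRC-GCA2-4 from -0.44 to 0.03 in nuc, with the positive value without siSSB nuc replicate 2.

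The summed log2 ratios moved as follows. For chromosome 7 in total RNA the ratio was -0.46 by the snoRNA sum and -0.40 by the tRNA sum. Elsewhere it was -0.38 by library size, -1.36 by the miRNA sum, -0.24 by the snoRNA sum and -0.17 by the tRNA sum. In nuc the chromosome 7 ratio was 0.57 by library size, 0.51 by the snoRNA sum and 0.60 by the tRNA sum, and elsewhere 0.03, -0.03 and 0.05. In cyto it was -0.48 by the snoRNA sum and -0.30 by the tRNA sum on chromosome 7, and elsewhere -0.78 by library size, -0.59 by the snoRNA sum and -0.41 by the tRNA sum. Between nuc and cyto in control cells it was -6.02 by library size, -7.81 by the snoRNA sum and 0.14 by the tRNA sum on chromosome 7, and -5.41, -7.23 and 0.77 elsewhere, with -1.53 by the miRNA sum. In siSSB cells it was -4.77, -6.82 and 1.04 on chromosome 7 and -4.59, -6.67 and 1.22 elsewhere.

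Between scalings the sign differed for 5 of 25 genes in total RNA, 4 of 9 in nuc, 7 of 25 in cyto, 18 of 27 between the fractions in control cells and 21 of 26 in siSSB cells. The 3 genes with the highest mean count in each locus group and TRC-GCA21-1 changed as follows. In total RNA TRC-GCA9-4 was at 0.27 by library size, 0.42 by the snoRNA sum and 0.47 by the tRNA sum, and in cyto at 0.03 by the tRNA sum. In nuc TRC-GCA2-3 was at 0.04 by library size and 0.09 by the tRNA sum, and TRC-GCA2-4 at 0.11 by library size, 0.01 by the miRNA sum, 0.05 by the snoRNA sum and 0.13 by the tRNA sum. Between nuc and cyto in control cells the tRNA sum put TRC-GCA2-4 at 0.15, TRC-GCA9-3 at 0.74 and TRC-GCA9-4 at 0.59. Library size and the snoRNA sum put TRC-GCA2-1 at -2.96 and -4.72 and TRC-GCA21-1 at -3.40 and -5.18. In siSSB cells the tRNA sum put TRC-GCA2-4 at 0.84 and TRC-GCA17-1 at 0.41. There library size and the snoRNA sum put TRC-GCA2-1 at -2.43 and -4.48 and TRC-GCA9-4 at -3.24 and -5.28. Over the scalings in siSSB cells TRC-GCA2-3 ran from -7.81 to 0.08, TRC-GCA9-3 from -6.49 to 1.33 and TRC-GCA21-1 from -5.43 to 2.40.

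With 474 to 654 cysteine tRNA counts in a nuclear library, 21 of the 30 genes were too low there to be tested, and values of genes with under 20 counts rest on few reads. No cysteine tRNA gene held the same counts as another in all libraries (0 of 30), so summing all rows changed nothing.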
